A study of Mus musculus with 6 samples.

Results

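The Serpina genes are clade A serpins, secreted inhibitors and carrier proteins that the liver makes in large amounts. The 10 described here are Serpina1a, Serpina1b, Serpina1c, Serpina1d and Serpina1e, Serpina3c, Serpina3k, Serpina3m and Serpina3n, and Serpina6, chosen by symbol from the 54532 genes of the count table. All 10 were in the table and 9 passed the filter on low counts, among 14873 genes tested. RNA was sequenced from hepatocytes of Xbp1ΔHep mice (XCKO, 3 libraries), in which Xbp1 is deleted in hepatocytes, and of Xbp1FL/FL mice (XCON, 3 libraries), which carry floxed Xbp1. Mice of both groups had the C57BL/6 background, were 32 to 34 weeks old and had eaten a high-fat diet (HFD) for 26 weeks. The labels name neither the line that deletes Xbp1 nor the exons removed, and tie no library to a mouse, so the p-values speak only of the spread among these 6 libraries, which may be technical.

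A serpin inhibits its target protease by offering an exposed stretch, the reactive-centre loop, as bait. The protease cuts the loop and is then trapped on the inhibitor, and the residue before the cut largely sets which protease is caught. Serpina1 genes encode antitrypsins, with 1 gene in humans, whose product inhibits neutrophil elastase and related enzymes, and a duplicated set in mice. Serpina3 genes are the mouse counterparts of human antichymotrypsin and include acute-phase genes such as Serpina3n. Serpina6 encodes corticosteroid-binding globulin, a serpin that no longer inhibits proteases and carries glucocorticoids in blood. These proteins fold in the endoplasmic reticulum (ER), whose capacity XBP1, a transcription factor switched on by the unfolded protein response, helps to set.

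The loop's coding stretch, in the last of 5 exons, is shown for each Serpina1 gene because the loop sets what each antitrypsin can inhibit. Capitals mark the 11 codons whose residue differs among the 5 genes, and the sequences were read from GENCODE M21 transcripts on GRCm38 (mm10).
Serpina1a, chr12:103853756-103853830, minus strand: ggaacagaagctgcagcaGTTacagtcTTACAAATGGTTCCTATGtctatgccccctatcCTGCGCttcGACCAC
Serpina1b, chr12:103728323-103728397, minus strand: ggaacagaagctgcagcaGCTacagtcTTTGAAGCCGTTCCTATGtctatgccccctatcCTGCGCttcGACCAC
Serpina1c, chr12:103895093-103895167, minus strand: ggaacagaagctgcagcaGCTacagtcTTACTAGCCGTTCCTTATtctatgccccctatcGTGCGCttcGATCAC
Serpina1d, chr12:103763761-103763835, minus strand: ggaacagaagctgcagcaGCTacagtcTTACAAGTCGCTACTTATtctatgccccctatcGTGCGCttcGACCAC
Serpina1e, chr12:103947099-103947173, minus strand: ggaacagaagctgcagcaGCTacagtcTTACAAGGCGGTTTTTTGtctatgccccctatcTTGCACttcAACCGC
Before the serine codon tct that all 5 share, the loop codon was ATG, methionine, in Serpina1a and Serpina1b. It was TAT, tyrosine, in Serpina1c and Serpina1d, and TTG, leucine, in Serpina1e. In human antitrypsin the residue at this place is also a methionine and is the one before the cut.

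The loops of the 3 tested Serpina3 members and of Serpina6 are shown for comparison, since their loops differ from those of the antitrypsins and from each other. Capitals here mark the codons between the hinge and the next conserved aromatic residue.
Serpina3k, chr12:104345269-104345346, plus strand: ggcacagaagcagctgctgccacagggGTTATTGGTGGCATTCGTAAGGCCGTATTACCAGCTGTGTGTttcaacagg
Serpina3m, chr12:104393769-104393852, plus strand: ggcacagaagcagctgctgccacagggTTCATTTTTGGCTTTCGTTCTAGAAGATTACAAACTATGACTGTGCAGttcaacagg
Serpina3n, chr12:104413448-104413531, plus strand: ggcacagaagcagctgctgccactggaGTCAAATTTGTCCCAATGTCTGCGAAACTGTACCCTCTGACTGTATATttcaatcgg
Serpina6, chr12:103646921-103646998, minus strand: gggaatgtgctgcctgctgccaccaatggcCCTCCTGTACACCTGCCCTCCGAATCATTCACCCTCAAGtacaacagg
The Serpina3 hinge was nearly the same in the 3 genes, and the capital stretch differed in letters and, for Serpina3k, in length.

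The 10 genes lie on chromosome 12 within 768 kb, from chr12:103646630 to chr12:104414329 on mm10. Serpina6 and Serpina1a to Serpina1e are on the minus strand, Serpina3c is also on the minus strand, and Serpina3k, Serpina3m and Serpina3n are on the plus strand. The annotated span of Serpina1d lies inside that of Serpina1b on the same strand, and Serpina3k shares its start with Serpina3m. Coding sequences of Serpina1a to Serpina1e were 96.3% to 98.5% identical, those of the 4 Serpina3 members 82.7% to 91.1%, and Serpina6 matched the other members at 54.3% to 56.1%.

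**Figure D1:**
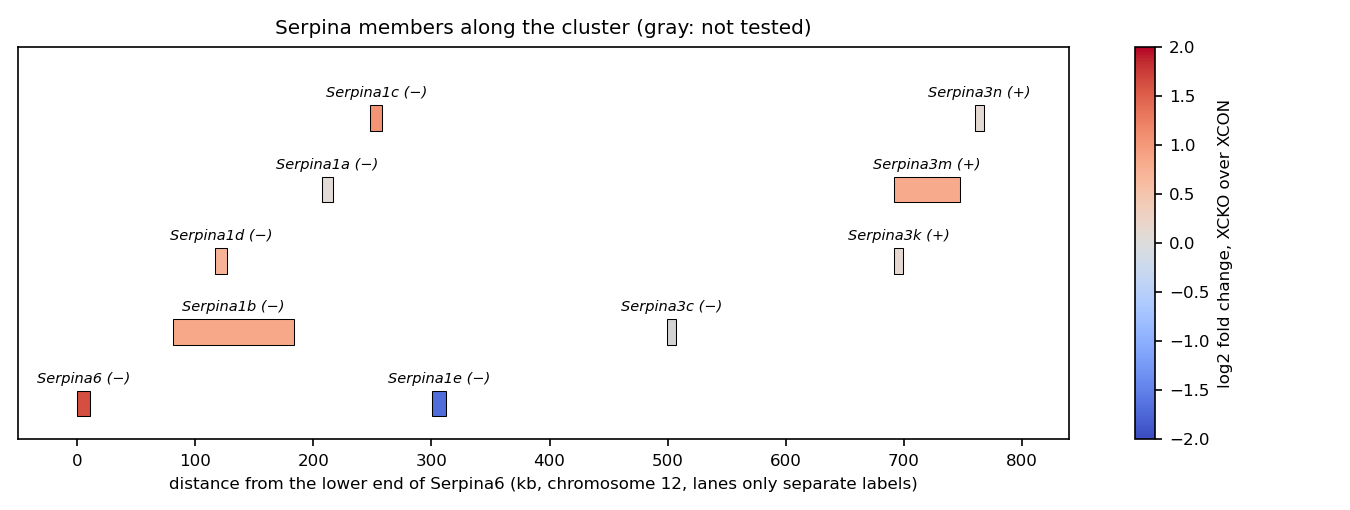
The 10 genes as boxes along chromosome 12, with the distance in kb on the horizontal axis, the strand in brackets and the box colour giving the log2 fold change, XCKO over XCON. Serpina6 has the deepest red at 1.63 and Serpina1e the deepest blue at -1.69, and Serpina3c is gray because it was not tested.

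Such likeness limits what a read count of 1 paralog can say. Of all 100-base stretches of the coding sequence, 35.7% of Serpina1a and 26.1% of Serpina1c occurred in no other annotated gene. The share was 70.0% for Serpina1b, 66.7% for Serpina1d and 80.9% for Serpina1e. It was 91.8% for both Serpina3k and Serpina3m and 99.7% for Serpina3n, and no such stretch of Serpina3c or Serpina6 occurred elsewhere. The sources used here do not give how reads were counted, whether by strand and whether with several matches. Values of single Serpina1 genes, of Serpina3k and of Serpina3m are therefore uncertain, and the sums over each cluster do not depend on how such reads were split within it.

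**Figure D2:**
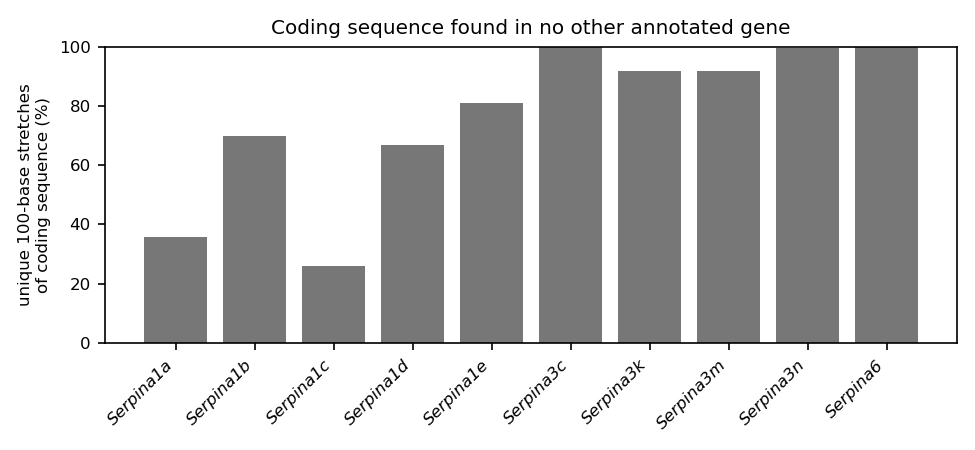
Bars give, for each gene, the percent of 100-base stretches of its coding sequence that occur in no other annotated gene. Serpina1c (26.1%) and Serpina1a (35.7%) have the lowest bars, and Serpina3c and Serpina6 fill the whole axis.

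The promoters of 7 members were in the RefSeq table (GRCm38.p6): those of Serpina1a to Serpina1e, Serpina3c and Serpina3n, but not those of Serpina3k, Serpina3m and Serpina6. Windows of 300 bases, 250 before and 50 after the RefSeq start, are shown for Serpina1b and Serpina1e, because these close copies had fold changes of opposite sign. Neither fold change passed edgeR's quasi-likelihood test (adjusted p = 0.068 for Serpina1b and 0.36 for Serpina1e). The groups overlapped for Serpina1e, and a difference between the 2 genes was not tested. Capitals mark TGTTTGC, a core of forkhead (FOX) sites, and GTTAAT, the core of sites for the liver factor HNF1.
Serpina1b, chr12:103738140-103738439, minus strand: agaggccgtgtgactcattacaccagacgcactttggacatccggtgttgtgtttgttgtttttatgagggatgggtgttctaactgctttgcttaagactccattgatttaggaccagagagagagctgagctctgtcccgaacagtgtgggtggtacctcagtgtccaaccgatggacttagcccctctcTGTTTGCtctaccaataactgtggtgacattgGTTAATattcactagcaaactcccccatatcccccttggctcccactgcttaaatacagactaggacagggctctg
Serpina1e, chr12:103956848-103957147, minus strand: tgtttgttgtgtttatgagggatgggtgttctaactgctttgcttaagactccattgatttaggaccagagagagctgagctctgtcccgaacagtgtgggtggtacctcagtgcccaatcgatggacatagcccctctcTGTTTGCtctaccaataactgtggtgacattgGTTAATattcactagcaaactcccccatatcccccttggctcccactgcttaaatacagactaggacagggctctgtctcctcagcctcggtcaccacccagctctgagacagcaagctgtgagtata
GTTAAT (or ATTAAC on the other strand) was in the windows of 5 of 5 Serpina1 genes and in that of Serpina3c but not of Serpina3n, against 7.1% of 32851 promoter windows. TGTTTGC (or GCAAACA) was in 5 of 5 Serpina1 windows and in neither Serpina3 window, against 5.07% of all windows. The RefSeq starts differ, so GTTAAT began 26 bases before the start in Serpina1b and 78 bases before it in Serpina1e. The Serpina1 windows were 91.4% to 97.6% identical over the aligned part of each pair, which was 239 to 300 bases. They shared a stretch of 59 bases. The windows of Serpina3c and Serpina3n were 92.6% identical over 297 aligned bases. The shared stretch of 59 bases holds both marked sites. The 5 Serpina1 windows are thus close copies, not 5 separate cases to set against all windows. Letters that XBP1 and its relatives bind, TGACGTGG (or CCACGTCA) and CCACG (or CGTGG), were in none of the 7 windows, against 0.676% and 32.8% of all windows, which says only that these letters are not there.

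Xbp1 itself checks the labels. Its level was 59, 39.3 and 67.4 CPM (counts scaled by TMM to the same library size) in XCKO 1, 2 and 3, against 171, 294 and 319 CPM in XCON 1, 2 and 3. All XCKO libraries were below all XCON libraries, and edgeR's quasi-likelihood test gave a log2 fold change of -2.24 ± 0.29 (SE, adjusted p over all tested genes = 0.0084). Libraries held 26477489 to 27240079 counts in XCKO and 23919355 to 26502456 in XCON. Mitochondrial transcripts took 8.99% to 13.1% of counts in XCKO, and 22.8% in XCON 1 against 9.79% and 9.3% in XCON 2 and 3. The 10 hepatocyte markers all had reads and summed to 93600 to 122000 CPM in XCKO and 66800 to 92200 CPM in XCON, so every XCKO library was above every XCON library. Alb, whose groups overlapped, made up most of this sum, with a mean of 70800 CPM in XCKO and 53800 CPM in XCON. Of these 10 markers, 0 passed in edgeR's quasi-likelihood test, with 5 higher at an unadjusted p under 0.05 and 4 higher with DESeq2.

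Markers of other liver cells were also present, and none was at 0 in every library. Summed levels were lower in every XCKO library than in every XCON library for macrophages (459 to 1300 CPM in XCKO and 1320 to 2590 CPM in XCON), cholangiocytes (98 to 173 CPM in XCKO and 281 to 615 CPM in XCON) and lymphocytes (16.3 to 54.6 CPM in XCKO and 55.8 to 118 CPM in XCON). With edgeR, 1 of 10 macrophage markers was lower (Cd68, adjusted p = 0.033), with 5 lower at an unadjusted p under 0.05 and 5 with DESeq2. Of 8 tested cholangiocyte markers 1 was lower (Bicc1, adjusted p = 0.024), with 8 lower at an unadjusted p under 0.05 and 5 with DESeq2. With edgeR 0 of 10 lymphocyte markers passed (1 lower at an unadjusted p under 0.05, and 1 with DESeq2). Most of the lymphocyte sum was Ptprc, at 28.1, 13.7 and 46.5 CPM in XCKO 1, 2 and 3, against 97.8, 95.8 and 53 CPM in XCON 1, 2 and 3. For every other listed lymphocyte marker the groups overlapped. Stellate markers summed to 106 to 261 CPM in XCKO and 260 to 610 CPM in XCON, and 2 of 10 were lower (Pdgfrb, adjusted p = 0.017, and Lrat, adjusted p = 0.024), with 7 lower at an unadjusted p under 0.05 and 6 with DESeq2. Of the 6 fits that left out a library, Cd68 passed in 2, Bicc1 in 3, Pdgfrb in 3 and Lrat in 1. Erythroid markers went the other way, at 77.4 to 917 CPM in XCKO and 42.1 to 70 CPM in XCON, with 0 of 5 passing in edgeR but 5 higher at an unadjusted p under 0.05 and with DESeq2. The groups overlapped for each globin gene among them, and not for Alas2 (62.6 to 92.4 CPM in XCKO and 23.5 to 56.2 CPM in XCON). Neutrophil markers summed to 5.82 to 113 CPM in XCKO and 15.5 to 40.9 CPM in XCON and endothelial markers to 531 to 1040 CPM in XCKO and 683 to 725 CPM in XCON, so both overlapped, and with edgeR 0 of 8 and 0 of 10 passed (2 higher and 1 lower, and 1 lower, at an unadjusted p under 0.05; with DESeq2, 1 neutrophil marker higher and 1 lower, and 0 endothelial). The part of these cell-type and mitochondrial values in the results below was not tested. In bulk RNA, fewer cells of a type and less RNA per cell cannot be told apart.

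Serpina6 and Serpina3m were higher in XCKO hepatocytes, and 0 members were lower. These are 2 of 9 tested members, or 22.2%, where 5.21% of all tested genes were higher and 4.05% lower at an adjusted p under 0.05, edgeR's quasi-likelihood test. The other 7 did not pass. At an unadjusted p under 0.05, 5 members were higher and 0 lower, and the same counts came from DESeq2's adjusted p. DESeq2 called 1415 of all 14873 tested genes higher and 1238 lower, a larger part than edgeR called. The share of all tested genes at an unadjusted p under 0.05 was not counted. Counts at that level, here and in the other paragraphs, thus have no background to be set against. Every XCKO library was above every XCON library for 5 of the 9 members (Serpina1b, Serpina1c, Serpina1d, Serpina3m and Serpina6), and this held for 17.6% of all tested genes. The median log2 fold change was 0.73 over the 9 tested members and -0.05 over all tested genes. Leaving out any of XCKO 1, XCKO 3, XCON 1, XCON 2 or XCON 3 left 1 member past the threshold. Over all tested genes 775 were higher and 603 lower with TMM, against 326 higher and 2032 lower with library totals alone, and 205 higher and 3409 lower with libraries scaled to their hepatocyte markers. These scalings put the median of all tested genes at -0.31 and -0.46.

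**Figure D3:**
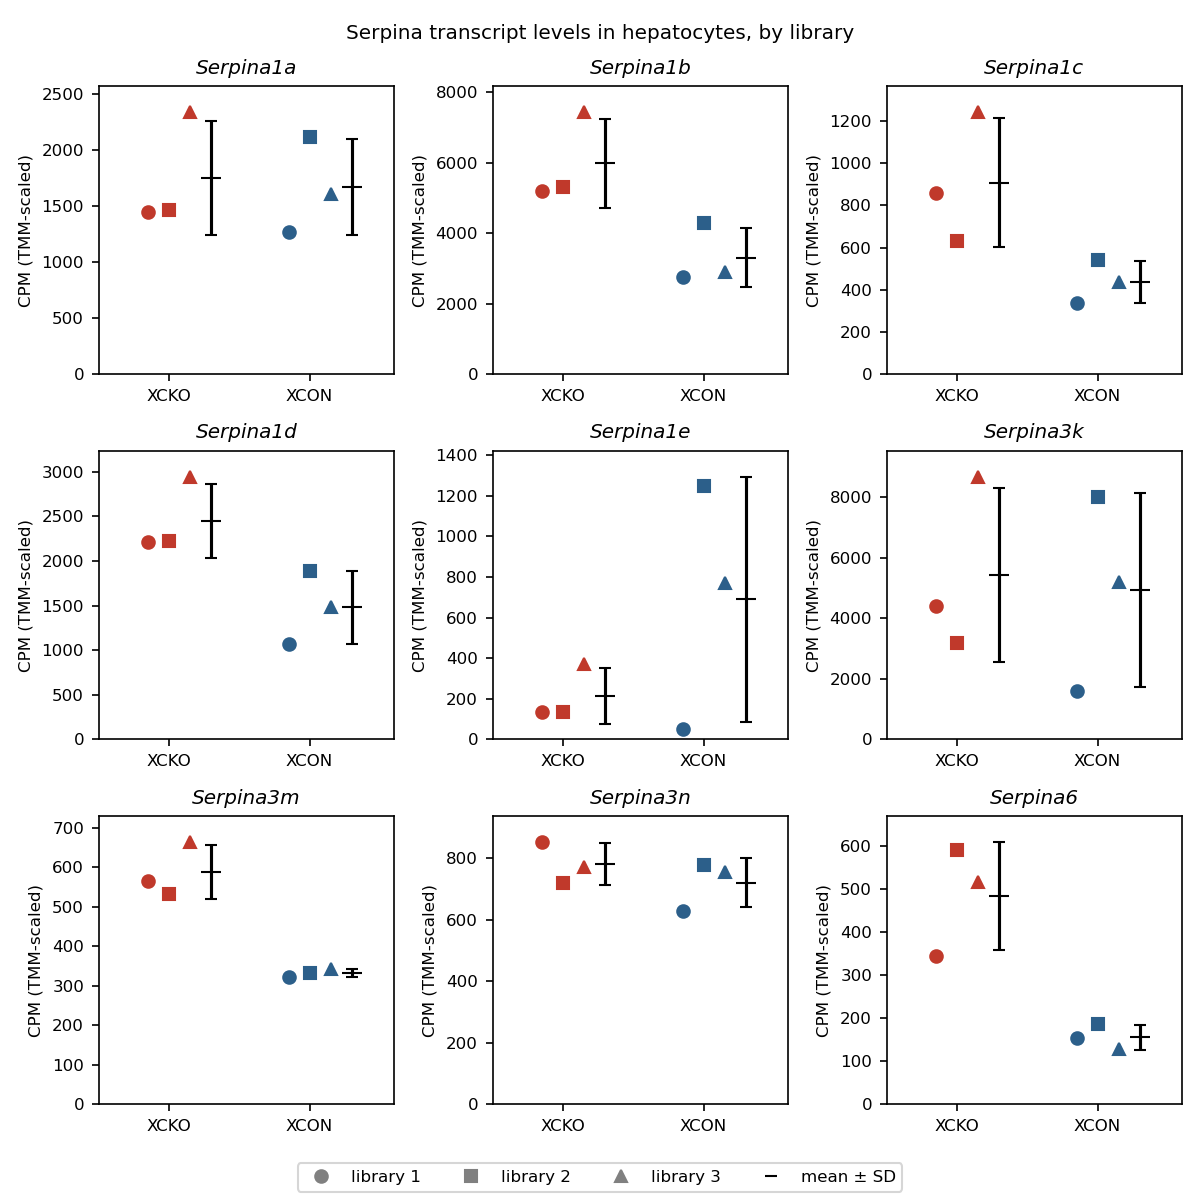
Each panel gives the TMM-scaled CPM of 1 tested member in 3 XCKO libraries (left, red) and 3 XCON libraries (right, blue), with the symbol giving the library number and the black bar the mean ± SD. Serpina6, Serpina3m, Serpina1b, Serpina1c and Serpina1d have all XCKO points above all XCON points, and Serpina1e and Serpina3k have a low point for XCON 1.

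Serpina6 had the largest positive fold change of the members. The gene (ENSMUSG00000060807, chr12:103646630-103657212) encodes the main carrier of corticosterone in mouse blood. Its level was 345, 589 and 516 CPM in XCKO 1, 2 and 3, against 153, 186 and 128 CPM in XCON 1, 2 and 3. The lowest XCKO library was above the highest XCON library. The means were 483 ± 125 CPM in XCKO and 156 ± 29.3 CPM in XCON (SD, n = 3 each), a log2 fold change of 1.63 ± 0.24 (SE), or 3.1-fold, with an interval of 1.08 to 2.19 at 95% and an adjusted p of 0.011. Serpina6 passed the threshold in all 18 alternative fits, between 1.23 and 1.84 on the log2 scale, with an adjusted p of at most 0.044. The authors' deposited table gives a log2 fold change of 1.67 with an adjusted p of 6.92e-10. By the coding identities above, Serpina6 is also the member least like the others.

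Genes that act on glucocorticoids were set beside it. Of 12 listed genes of hormone metabolism, receptor and known response, all tested, 1 was higher and 11 did not pass, with a median log2 fold change of 0.31. DESeq2 called 2 higher. The one that passed was Hsd11b1, the enzyme that regenerates active glucocorticoid inside hepatocytes. It averaged 869 ± 159 CPM in XCKO and 376 ± 34.8 CPM in XCON (SD, n = 3 each), a log2 fold change of 1.21 ± 0.2 (SE, adjusted p = 0.014). Hsd11b1 passed the threshold with each library left out.

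The genes closest to Serpina6 over the 6 libraries were Extl1, Mcrip2 and Gas1. Closeness was measured as the root-mean-square difference in log2 CPM after each gene's own mean was subtracted, over 9471 candidate genes, and it was 0.07, 0.17 and 0.18. Extl1, a glycosyltransferase of the exostosin family, had 20.3, 31.9 and 27.8 CPM in XCKO 1, 2 and 3, against 8.54, 11.4 and 7.47 CPM in XCON 1, 2 and 3. Like Serpina6 it was highest in XCKO 2 among XCKO libraries and in XCON 2 among XCON libraries. All 3 were chosen for this likeness, so their fold changes are not given as further results.

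The 5 antitrypsin genes did not pass the test as a sum, and 0 of the 5 passed singly in edgeR. At an unadjusted p under 0.05, 3 of them were higher, as with DESeq2's adjusted p, by which 1415 of all 14873 tested genes were higher. The summed level of the 5 antitrypsin genes was 9850, 9730 and 14300 CPM in XCKO 1, 2 and 3, against 5490, 10100 and 7190 CPM in XCON 1, 2 and 3. XCON 2 lay above XCKO 1 and 2, so the groups overlapped. For the sum, the log2 fold change was 0.57 ± 0.29 (SE; 95% interval -0.07 to 1.22; adjusted p = 0.21), and no alternative fit brought it past the threshold. Acsm1, Hsd17b2 and Mrpl47 followed the sum most closely, with root-mean-square differences of 0.12, 0.12 and 0.13.

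Serpina1b had the highest level per length of the 5. The gene (ENSMUSG00000071178, chr12:103728156-103830373) encodes an antitrypsin with the methionine loop. It had 5210, 5300 and 7430 CPM in XCKO 1, 2 and 3, against 2770, 4280 and 2900 CPM in XCON 1, 2 and 3. The groups did not overlap, and XCKO 3 was the highest library. This gave a log2 fold change of 0.85 ± 0.26 (SE; 95% interval 0.27 to 1.43; adjusted p = 0.068), which missed the threshold. It passed in 3 of 18 alternative fits, namely without the filter on low counts, with DESeq2 and with a gene length offset.

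Serpina1d, with the tyrosine loop, lies inside the span of Serpina1b (ENSMUSG00000071177, chr12:103763594-103773592). It had 2210, 2220 and 2940 CPM in XCKO 1, 2 and 3, against 1070, 1890 and 1490 CPM in XCON 1, 2 and 3. The libraries kept the order of Serpina1b, with XCON 2 highest in XCON and XCKO 3 highest of all. This gave a log2 fold change of 0.73 ± 0.25 (SE; 95% interval 0.16 to 1.3; adjusted p = 0.097), and 2 of 18 alternative fits called it.

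Serpina1c, the other gene with the tyrosine loop (ENSMUSG00000079015, chr12:103894926-103904887), lay at the edge of the threshold. It had 856, 630 and 1240 CPM in XCKO 1, 2 and 3, against 340, 539 and 439 CPM in XCON 1, 2 and 3. The lowest XCKO library, XCKO 2, was still above the highest XCON library, XCON 2. The log2 fold change was 1.05 ± 0.28 (SE), or 2.06-fold, with an interval of 0.41 to 1.68 and an adjusted p of 0.0502. It passed in 8 of 18 alternative fits, with adjusted p-values up to 0.13 over all of them, and of the fits that left out a library only the one without XCKO 2 called it.

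In the authors' deposited table, whose tool is not stated, the adjusted p-values of Serpina1b, Serpina1c and Serpina1d are 0.00284, 0.00151 and 0.0145, with log2 fold changes of 0.89, 1.09 and 0.77.

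Serpina1a shares the methionine loop with Serpina1b and had a smaller fold change, a difference that was not tested (ENSMUSG00000066366, chr12:103853589-103863562). It had 1450, 1470 and 2340 CPM in XCKO 1, 2 and 3, against 1270, 2120 and 1610 CPM in XCON 1, 2 and 3. The groups overlapped throughout. This gave a log2 fold change of 0.07 ± 0.27 (SE; 95% interval -0.54 to 0.69; adjusted p = 0.88), and its sign turned negative under 4 of the alternative fits, among them those without XCKO 3 (-0.17) and without XCON 1 (-0.09).

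Serpina1e, the leucine-loop gene, varied more within XCON than any other tested member (ENSMUSG00000072849, chr12:103946931-103958975). It had 134, 134 and 374 CPM in XCKO 1, 2 and 3, against 52.2, 1250 and 769 CPM in XCON 1, 2 and 3. XCON 2 and 3 were above all XCKO libraries and XCON 1 was below them all, so the highest XCON library was 23.9 times the lowest, against 2.79 times in XCKO. The log2 fold change was -1.69 ± 1.1 (SE; 95% interval -4.43 to 1.06; adjusted p = 0.36). Without XCON 1, the library with 22.8% mitochondrial transcripts, it was -2.23 ± 0.51 with an adjusted p of 0.071. Without XCON 2 it was -0.93 with an adjusted p of 0.68, so the size of this value rests on single XCON libraries.

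The pattern of Serpina1e was followed only loosely by other genes. The closest by root-mean-square difference, looked up after its values were seen, were Serpina4-ps1, Egfr and Ces3b at 0.61, 0.66 and 0.67. Serpina4-ps1, a pseudogene of the same cluster by its name, had 8.62, 7.03 and 12.2 CPM in XCKO 1, 2 and 3, against 1.46, 97.5 and 70.4 CPM in XCON 1, 2 and 3. These genes were chosen for the likeness, so their fold changes are not given.

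The mix of the antitrypsin genes was compared as the percent of each gene in the Serpina1 counts of a library. Serpina1a made up 14.7%, 15% and 16.4% in XCKO 1, 2 and 3, against 23.1%, 21.1% and 22.3% in XCON 1, 2 and 3. Each XCKO library was below each XCON library, with a mean difference of -6.79 percentage points, and the SD was 0.866 points in XCKO and 1.02 points in XCON. Serpina1b made up 52.8%, 54.4% and 51.9% in XCKO 1, 2 and 3, against 50.4%, 42.5% and 40.2% in XCON 1, 2 and 3. Its groups did not overlap, with XCON 1 closest to XCKO. Serpina1c took 8.69%, 6.47% and 8.63% in XCKO 1, 2 and 3, against 6.19%, 5.35% and 6.09% in XCON 1, 2 and 3, again without overlap. For these 3 genes the two-sided exact permutation p was 0.1 (0.3 adjusted over 9 paralogs), the smallest that 3 libraries against 3 allow. Serpina1d took 22.4%, 22.7% and 20.5% in XCKO 1, 2 and 3, against 19.4%, 18.7% and 20.7% in XCON 1, 2 and 3, and overlapped (exact permutation p = 0.2). As a share of the summed FPKM, Serpina1d took 30.2%, 31% and 27.7% in XCKO 1, 2 and 3, against 26.5%, 24.8% and 27.1% in XCON 1, 2 and 3, without overlap (exact permutation p = 0.1, 0.225 adjusted over 9 paralogs). Serpina1e took 1.36%, 1.38% and 2.62% in XCKO 1, 2 and 3, against 0.949%, 12.4% and 10.7% in XCON 1, 2 and 3 (exact permutation p = 0.4). The shares of a library are parts of the same sum, so a large Serpina1e share lowers the shares of the other genes. This holds most in XCON 2 and 3, where Serpina1e took 12.4% and 10.7%. Whether the groups of Serpina1c, and of Serpina1d by FPKM, stay apart with Serpina1e left out of the sum was not tested. Wilson intervals at 95%, which cover counting error only, reached at most 0.259 points to either side.

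**Figure D4:**
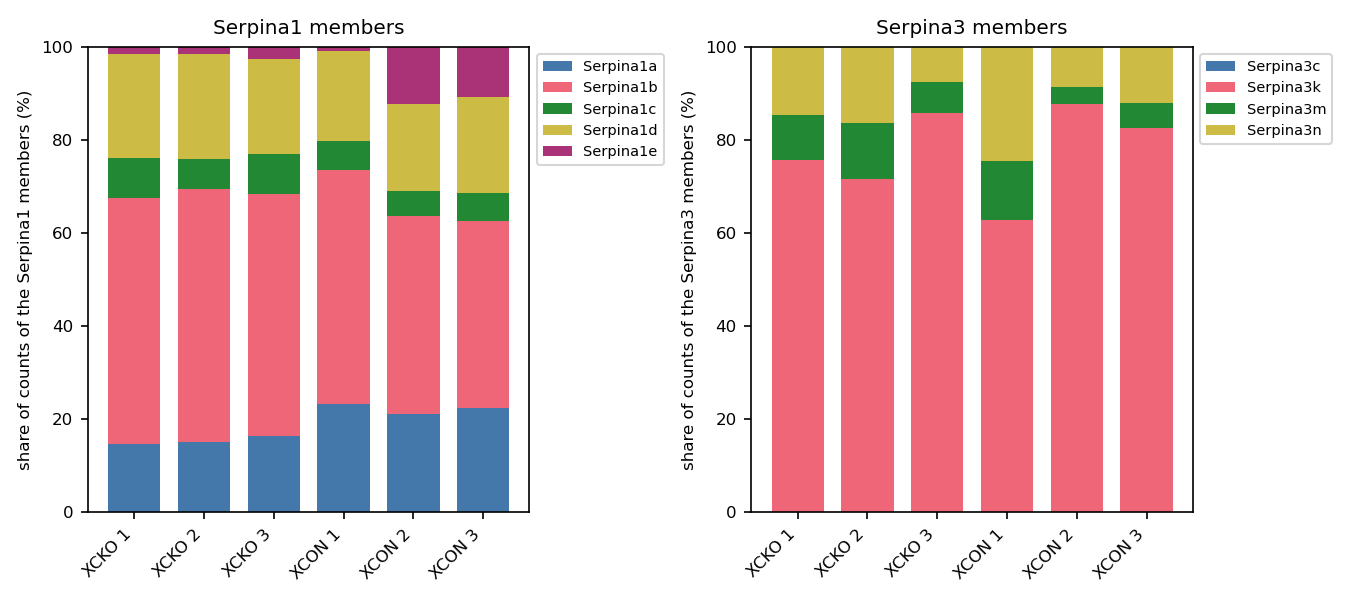
Stacked bars give the percent of each gene in the summed counts of the Serpina1 genes (left panel) and of the Serpina3 genes (right panel) in the 3 XCKO and 3 XCON libraries. The Serpina1a layer is 14.7% to 16.4% in XCKO and 21.1% to 23.1% in XCON, and the Serpina1e layer is wide only in XCON 2 and 3 (12.4% and 10.7%).

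Among the antichymotrypsin-like genes, Serpina3m was higher in XCKO and the others did not pass. Serpina3m (ENSMUSG00000079012, chr12:104338486-104394257) had 567, 532 and 664 CPM in XCKO 1, 2 and 3, against 322, 334 and 343 CPM in XCON 1, 2 and 3. The groups did not overlap and the XCON libraries lay close together. Serpina3m shares its start with Serpina3k, so reads there may count for either. The means were 588 ± 68.4 CPM in XCKO and 333 ± 10.3 CPM in XCON (SD, n = 3 each), a log2 fold change of 0.82 ± 0.17 (SE), or 1.77-fold, with an interval of 0.44 to 1.21 and an adjusted p of 0.025. The call was lost with library totals alone (0.55, adjusted p = 0.053) and with scaling to hepatocyte markers (0.39, adjusted p = 0.24). It was also lost with the replicate number as a block (0.82, adjusted p = 0.064), and without any single library other than XCKO 2 (adjusted p from 0.057 to 0.078). The authors' deposited table gives a log2 fold change of 0.86 with an adjusted p of 5.18e-05.

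Serpina3k, which overlaps Serpina3m, had the highest mean level per length of the 10 genes (ENSMUSG00000058207, chr12:104338486-104346144). It had 4410, 3170 and 8650 CPM in XCKO 1, 2 and 3, against 1610, 7990 and 5200 CPM in XCON 1, 2 and 3. XCKO 3 was the highest library and XCON 1 the lowest, and between them XCKO 1 and 2 lay below XCON 2 and 3, so the groups overlapped. The log2 fold change was 0.13 ± 0.59 (SE; 95% interval -1.25 to 1.52; adjusted p = 0.9), and it was -0.28 without XCON 1 and -0.35 without XCKO 3. C8b, a chain of complement component C8, followed it most closely at a root-mean-square difference of 0.19, before Tspan33 and Urad at 0.27 each.

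Serpina3n, a widely used marker of the acute-phase response, varied little (ENSMUSG00000021091, chr12:104406729-104414329). It had 852, 719 and 772 CPM in XCKO 1, 2 and 3, against 629, 778 and 756 CPM in XCON 1, 2 and 3. The groups overlapped, with XCON 1 lowest. The log2 fold change was 0.12 ± 0.18 (SE; 95% interval -0.29 to 0.52; adjusted p = 0.7), and it was -0.15 with library totals alone and -0.29 with scaling to hepatocyte markers. Usp38, Sppl2a and Prpf4 were closest to it, at 0.03, 0.05 and 0.05.

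Serpina3c (ENSMUSG00000066361, chr12:104146382-104153870) was close to undetected. It had 1, 2 and 1 reads in XCKO 1, 2 and 3, against 0, 2 and 12 reads in XCON 1, 2 and 3, so most of its reads came from XCON 3. No fold change is given at this depth.

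The summed Serpina3 members had 5820, 4420 and 10100 CPM in XCKO 1, 2 and 3, against 2550, 9090 and 6290 CPM in XCON 1, 2 and 3. The groups overlapped, with a log2 fold change of 0.18 ± 0.48 (SE), an interval of -0.93 to 1.29 and an adjusted p of 0.83. Within the sum, Serpina3k took 75.6%, 71.7% and 85.8% in XCKO 1, 2 and 3, against 62.8%, 87.8% and 82.5% in XCON 1, 2 and 3. Serpina3m took 9.74%, 12% and 6.59% in XCKO 1, 2 and 3, against 12.6%, 3.67% and 5.44% in XCON 1, 2 and 3, with an exact permutation p of 0.5.

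**Figure D5:**
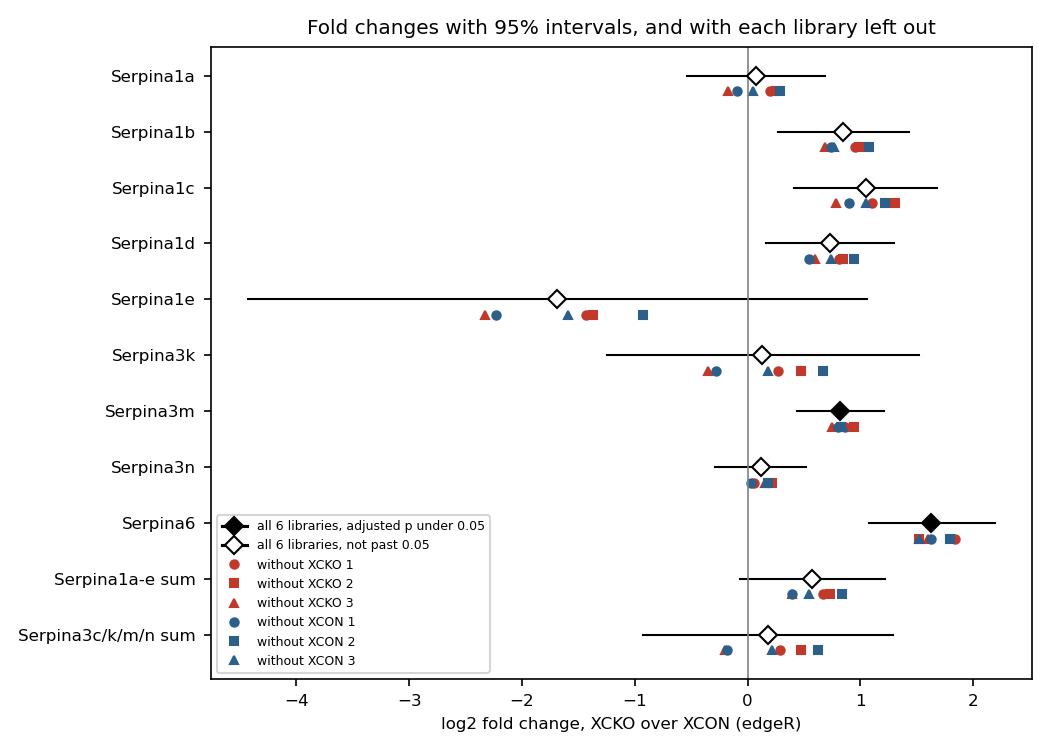
Diamonds and lines give the log2 fold change, XCKO over XCON, with its 95% interval from edgeR for 9 genes and 2 sums, filled where the adjusted p is under 0.05, and the small coloured symbols below give the value with 1 library left out. Serpina6 (1.63) and Serpina3m (0.82) are filled, and the line of Serpina1e runs from -4.43 to 1.06.

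Per length, with the authors' deposited FPKM, the members can be set in order. In XCKO, Serpina3k averaged 2640 ± 1450 FPKM and Serpina1b 2480 ± 564, followed by Serpina1d at 1760 ± 330, Serpina1a at 958 ± 296 and Serpina1c at 669 ± 237 (SD, n = 3). Serpina3n at 378 ± 36, Serpina3m at 342 ± 46.1, Serpina6 at 274 ± 69.1 and Serpina1e at 133 ± 88.5 FPKM came last. Among neighbours in this order the libraries overlapped except between Serpina1b and Serpina1d, between Serpina1d and Serpina1a, and between Serpina1c and Serpina3n. In XCON the order was Serpina3k at 2330 ± 1490 FPKM, Serpina1b at 1330 ± 318, Serpina1d at 1030 ± 279, Serpina1a at 885 ± 220 and Serpina1e at 415 ± 358 (SD, n = 3). Serpina3n at 340 ± 39, Serpina1c at 314 ± 68.8, Serpina3m at 189 ± 8.56 and Serpina6 at 86.0 ± 14.7 FPKM followed. Only Serpina1c and Serpina3m, and Serpina3m and Serpina6, were neighbours without overlap there. Serpina1e thus stood above Serpina3n in XCON and last of the tested members in XCKO, with the spread given above.

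Other serpins were set beside the members, where 9.27% of all tested genes passed in either direction. Of 17 further clade A serpins 12 were tested, 1 was higher and 11 did not pass, with a median log2 fold change of -0.15, and DESeq2 called 2 higher and 1 lower. The one that passed was Agt, angiotensinogen, the precursor of angiotensin, which averaged 1450 ± 131 CPM in XCKO and 664 ± 35.1 CPM in XCON (SD, n = 3 each), with a log2 fold change of 1.13 ± 0.18 (SE, adjusted p = 0.012). Of 14 serpins of other clades 13 were tested, 1 was higher and 12 did not pass, with a median of -0.47, and DESeq2 called 4 higher and 2 lower. That gene was Serpinb1a, an intracellular inhibitor of neutrophil proteases, at 14.6 ± 5.58 CPM in XCKO and 4.42 ± 0.975 CPM in XCON (SD, n = 3 each), with a log2 fold change of 1.73 ± 0.29 (SE, adjusted p = 0.016). Agt passed with each library left out, and Serpinb1a with each except XCON 3 (adjusted p = 0.05).

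Of 14 proteases that serpins inhibit or that share these pathways, 11 were tested, 1 was higher and 10 did not pass, with a median log2 fold change of 0.54, and DESeq2 called 6 higher. Klkb1, plasma kallikrein, averaged 154 ± 1.08 CPM in XCKO and 106 ± 4.98 CPM in XCON (SD, n = 3 each), with a log2 fold change of 0.54 ± 0.14 (SE, adjusted p = 0.0468). It lost its call whichever library was left out, with adjusted p-values up to 0.11, with library totals alone (0.28, adjusted p = 0.24) and with scaling to hepatocyte markers (0.12, adjusted p = 0.75).

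Antitrypsin leaves the ER by cargo receptors and COPII vesicles, and misfolded copies are degraded from the ER. Of 22 genes of this route, all tested, 1 was higher, 1 lower and 20 did not pass, with a median log2 fold change of -0.09. DESeq2 called 1 higher and 3 lower. Sar1b, the small GTPase that starts the COPII coat, averaged 334 ± 70.3 CPM in XCKO and 164 ± 18 CPM in XCON (SD, n = 3 each), with a log2 fold change of 1.03 ± 0.2 (SE, adjusted p = 0.021). Sec24b, a cargo-binding subunit of that coat, was lower, at 20.2 ± 1.55 CPM in XCKO and 34.4 ± 3.11 CPM in XCON (SD, n = 3 each), with a log2 fold change of -0.77 ± 0.14 (SE, adjusted p = 0.017). Sar1b lost its call without XCKO 3, XCON 2 or XCON 3, and Sec24b without XCKO 3 or XCON 3, with adjusted p-values up to 0.062 for both. With scaling to hepatocyte markers Sar1b was also not past the threshold (0.58, adjusted p = 0.078).

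Of 20 transcription factors and signalling genes known to act on Serpina genes, all tested, 1 was higher, 1 lower and 18 did not pass, with a median log2 fold change of 0.16. DESeq2 called 3 higher and 1 lower. Cebpa, a transcription factor of hepatocyte differentiation, averaged 509 ± 88.2 CPM in XCKO and 246 ± 59.2 CPM in XCON (SD, n = 3 each), with a log2 fold change of 1.05 ± 0.23 (SE, adjusted p = 0.03). It lost its call without XCKO 2, XCKO 3, XCON 1 or XCON 3, with adjusted p-values up to 0.088. Nfkb1, an NF-kB subunit, was lower, at 29.9 ± 5.1 CPM in XCKO and 44.9 ± 1.93 CPM in XCON (SD, n = 3 each), with a log2 fold change of -0.59 ± 0.16 (SE, adjusted p = 0.0487), and it lost its call whichever library was left out, with adjusted p-values up to 0.15, and with a gene length offset (-0.28, adjusted p = 0.25).

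Of 20 tested genes for other plasma proteins of the liver, 2 were higher and 18 did not pass, with a median log2 fold change of 0.36. DESeq2 called 9 higher. Rbp4, the retinol carrier, averaged 4040 ± 524 CPM in XCKO and 2060 ± 179 CPM in XCON (SD, n = 3 each), with a log2 fold change of 0.97 ± 0.2 (SE, adjusted p = 0.025). Apoh, the phospholipid-binding apolipoprotein H, averaged 2310 ± 244 CPM in XCKO and 1380 ± 139 CPM in XCON (SD, n = 3 each), with a log2 fold change of 0.74 ± 0.19 (SE, adjusted p = 0.045). Rbp4 lost its call without XCKO 3 or XCON 3, with adjusted p-values up to 0.081, and Apoh whichever library was left out, with adjusted p-values up to 0.12. With scaling to hepatocyte markers both lost their calls (Rbp4 0.54, adjusted p = 0.059; Apoh 0.32, adjusted p = 0.3), and Apoh also with library totals alone (0.47, adjusted p = 0.11).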

How the data were processed

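RNA of 6 hepatocyte libraries was extracted with Trizol and made into libraries with NEBNext Ultra reagents, as the labels' protocols say. The authors deposited 1 table of raw read counts per Ensembl gene. It also holds the authors' FPKM values, the authors' group means as a signal (mean counts after division by size factors), the authors' log2 fold changes and the authors' p-values and adjusted p-values, per the file headers. The submitters' processing notes list the builds mm8 and mm10 and the aligner Bowtie 0.12.2, with no roles. Coordinates are mm10: all 10 members had the same start and end in GENCODE M21.

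Genes passing edgeR's filterByExpr were tested with edgeR 4.0.16's quasi-likelihood test (R 4.3.3, TMM, robust fits) on group alone, with p-values adjusted by Benjamini-Hochberg across the 14873 tested genes (threshold 0.05). The biological coefficient of variation was 25.8%. SEs are the absolute log2 fold change over the square root of the F statistic. Each sum replaced its genes' rows in the table. The procedure was tested on simulated data with the same spread for every gene and 200 changed genes, a simpler setting than these data. Alternatives were other scalings and filters, a replicate block, DESeq2 1.42.0, limma 3.58.1 (voom, and log2 of FPKM plus 1 or 0.1 where at least 3 libraries reached an FPKM of 1), mitochondrial genes left out, a length offset and each library left out. Scaling to hepatocyte markers, and these repeats for non-members, were chosen after seeing the data. That scaling used the summed counts of the hepatocyte markers, most of which were from Alb. Members and lists were chosen with earlier results of these data known. Named genes are Xbp1, all members, up to 4 genes per list with the smallest p among those past the threshold (markers without a passing gene are given as sums), and the 3 genes closest to Serpina6, Serpina3k, Serpina3n and the Serpina1 sum among genes with a mean of at least 5 CPM. The 3 genes closest to Serpina1e were added after its values were seen. Alb, Ptprc and Alas2 are also named, for their part in a marker sum.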

Additional observations from a re-analysis of the deposited data

How the results depend on the processing

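Serpina6 was the 1 member past the threshold in all 18 alternative fits, and 0 members were lower in any of them. The number of members higher was 2 in the report, 1 with library totals alone, 5 without a filter on low counts, 5 with DESeq2, 4 with a length offset and 1 to 3 with a library left out. Over all tested genes, 775 were higher and 603 lower in the report. These counts were 326 and 2032 with library totals alone, 1185 and 975 without a filter, 1415 and 1238 with DESeq2, and 205 and 3409 with scaling to hepatocyte markers, and 1261 were higher with a length offset. On log2 FPKM, 335 (pseudocount 1) and 289 (pseudocount 0.1) were lower. With a library left out, 178 to 523 were higher and 131 to 287 lower. The number of members higher with hepatocyte scaling was again 2, Serpina6 and Serpina1c in place of Serpina3m.

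Replicate numbers showed no pairing of the libraries: deviations of same-numbered libraries correlated at 0.06, 0.08 and -0.17. Those of differently numbered libraries correlated at -0.16 to 0.11. Such values from 3 libraries a group cannot settle whether the numbers pair the libraries. With the replicate block, 220 genes were higher and 102 lower, and 1 member was higher: Serpina3m lost its call (0.82, adjusted p = 0.064). Of the other genes named with a call, Klkb1, Sec24b, Sar1b, Nfkb1, Rbp4, Apoh, Cd68, Pdgfrb, Lrat and Bicc1 lost theirs under the block, with adjusted p-values from 0.055 to 0.1.

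Fold changes near 0 changed sign. With library totals alone the log2 fold change was -0.21 for Serpina1a, -0.17 for Serpina3k, -0.15 for Serpina3n and -0.11 for the Serpina3 sum, and with scaling to hepatocyte markers -0.34, -0.25, -0.29 and -0.21 for the same 4. Without XCKO 3 it was -0.17 for Serpina1a, -0.35 for Serpina3k and -0.2 for the Serpina3 sum, and without XCON 1 it was -0.09, -0.28 and -0.18. With a library left out, Serpina1a ranged from -0.17 to 0.29, Serpina3k from -0.35 to 0.67 and the Serpina3 sum from -0.2 to 0.62, and the Serpina1 sum was not past the threshold in any fit. The difference in the Serpina1d share was 2.27 points from counts, with overlapping groups, and 3.5 points from FPKM, without overlap. The sums were not fitted on FPKM. The cause of these changes was not tested. With 3 libraries a group, an exact permutation p cannot go below 0.1, and Serpina3c, with 4 reads in XCKO and 14 in XCON, was below the filter.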
